A study of Mus musculus with 6 samples.

Results

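The genes described here are 10 of the Notch signalling pathway, found by symbol among the 45703 genes of a count table from 6 mouse cell cultures. They are the 4 receptors Notch1, Notch2, Notch3 and Notch4, the 3 ligands Jag1, Jag2 and Dll1, and the 3 target genes Hes1, Hey1 and Hey2. All 10 symbols were present once. The cultures were grown for 7 days from dorsal root ganglia (DRG), which lie beside the spinal cord and hold sensory neurons with their glia, of wild type C57BL/6 mice aged 4 to 6 weeks. Ganglia were digested with Liberase TH and TM, and cultures were kept on poly-L-lysine in DMEM/F12 with 10% fetal calf serum, EGF and FGF, the last pair at 10 ng/ml. RNA was taken from 2 dishes per sample, and poly-A RNA was sequenced with a stranded kit. All 6 cultures form 1 group of biological replicates, with no other group and no time-zero ganglion. Levels and their spread between cultures could therefore be described, and no condition could be compared.

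Notch receptors are membrane proteins that are activated by ligands on a touching cell. A metalloprotease and then the gamma-secretase complex cut the bound receptor, and the freed inner part enters the nucleus, joins the DNA-binding protein Rbpj and switches on target genes. Genes of the Hes and Hey families, which encode basic helix-loop-helix repressors, are the classical targets. In developing nerve the pathway is known for driving the formation and division of Schwann cells, the glia of nerve, and for opposing myelination. In vessels Notch3 is known from mural cells, the contractile cells of the wall, and Notch4 from endothelium.

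The libraries held 20070639 to 22968642 counts. Neuron markers (9 of 9 genes) and glial lineage markers (6 of 6) were above 3 counts in every library, and 4 of 5 lymphocyte markers were at or under 3 counts in all of them, so the labelled tissue was matched by its markers. Markers of fibroblasts (7 of 7 genes) were also above 3 counts in every library, as were 9 of 10 mural, 7 of 9 endothelial and 7 of 8 macrophage genes. Replicates 1 and 5 stood apart. Summed fibroblast markers took 3339 CPM (counts scaled to a library total of 1000000) in replicate 1 and 13977 CPM in replicate 5, mural markers 306 and 2022 CPM, endothelial markers 11.2 and 144 CPM, and macrophage markers 16.8 and 163 CPM. These were the lowest and the highest of the 6 libraries for each of the 4 lists, whereas the summed glial lineage markers were lowest in replicate 5, at 4162 CPM, and lay between 5093 and 6033 CPM elsewhere. In bulk RNA, fewer cells of a type and less RNA per cell cannot be told apart.

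The stretch before the transcription start is shown for 4 members, because 3 of them (Jag1, Notch3 and Notch4) varied most between cultures among the 9 members above the filter on low counts and Hey2 is the target gene with an entry in the sequence table. The sequences are RefSeq's on GRCm38.p6, read in the direction of the gene from 250 bases before the start, to the last base before it, or for Hey2 to the end of a match that crosses it. For Notch3 and Notch4 the start used lies slightly inside the gene bounds given below, so the last bases of their stretches fall within those bounds. Capitals mark TGGGAA, the core of the Rbpj binding motif, which reads TTCCCA when it lies on the other strand. They also mark CACGCG, a site type bound by Hes and Hey proteins, whose other strand reads CGCGTG. The palindrome CACGTG, bound by the same families, was searched as well. The coordinates are chr10:30842781-30843033 for Hey2, chr2:137116521-137116770 for Jag1, chr17:32166891-32167140 for Notch3, all on the minus strand, and chr17:34564045-34564294 for Notch4 on the plus strand.
Hey2: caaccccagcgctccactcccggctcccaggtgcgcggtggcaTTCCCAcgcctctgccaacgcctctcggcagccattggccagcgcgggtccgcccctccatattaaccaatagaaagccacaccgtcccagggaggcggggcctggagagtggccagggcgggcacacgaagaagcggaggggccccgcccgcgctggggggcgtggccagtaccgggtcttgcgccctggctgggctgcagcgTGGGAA
Jag1: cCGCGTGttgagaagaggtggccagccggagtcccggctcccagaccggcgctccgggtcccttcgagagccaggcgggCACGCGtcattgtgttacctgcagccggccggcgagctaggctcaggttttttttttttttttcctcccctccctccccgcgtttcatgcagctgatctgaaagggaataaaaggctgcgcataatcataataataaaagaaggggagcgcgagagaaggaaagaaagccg
Notch3: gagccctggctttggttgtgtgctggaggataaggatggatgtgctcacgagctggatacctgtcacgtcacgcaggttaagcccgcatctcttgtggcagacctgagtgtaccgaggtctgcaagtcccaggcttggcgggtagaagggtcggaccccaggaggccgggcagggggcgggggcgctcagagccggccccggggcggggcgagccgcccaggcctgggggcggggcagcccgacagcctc
Notch4: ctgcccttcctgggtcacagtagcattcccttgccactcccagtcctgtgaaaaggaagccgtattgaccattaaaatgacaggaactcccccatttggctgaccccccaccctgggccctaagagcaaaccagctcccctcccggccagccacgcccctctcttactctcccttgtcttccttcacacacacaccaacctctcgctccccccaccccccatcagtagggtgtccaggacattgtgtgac

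Hey2 carried TGGGAA at a match that begins 3 bases before its start, and TTCCCA 207 bases before it. In windows of 250 bases before to 50 bases after the start, 8 members were in the RefSeq table (with 9 windows), and Hey2 was the 1 with this motif, which 25.6% of all 32851 windows hold. CACGCG was found in 4 of the 8 members (Jag1, with 2 matches, and Notch2, Jag2 and Dll1), against 9.27% of all windows. None of the 8 held CACGTG, which 7.15% of windows hold. The Notch3 and Notch4 windows held none of the 3 motifs. A match of letters is a description and not a site of binding. Hes1 and Hey1 had no entry.

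The first question was which receptors, ligands and targets the cultures expressed, and in what order. Of the 10 members, 9 reached at least 1 CPM in all 6 libraries, as did 30.4% of all genes in the table, and Dll1 was the exception. Notch1 (chromosome 2, 26457902 to 26503822, GRCm38.p6) was the main receptor, Jag1 (chromosome 2, 137081451 to 137116520) the main ligand and Hes1 (chromosome 16, 30065357 to 30067796) the main target. Levels of different genes are compared below as CPM per kilobase (kb) of combined exon length, because long genes collect more counts.

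Among the receptors, Notch1 had 202, 258, 228, 164, 235 and 215 CPM in replicates 1 to 6. It was lowest in replicate 4 and highest in replicate 2. Notch2 (chromosome 3, 98013538 to 98150367), widely expressed in other tissues, had 74.8, 76.5, 81.6, 82.2, 107.7 and 83.4 CPM in the same order. Replicate 5 was the highest and the other 5 libraries spanned less than 10 CPM. Notch3 (chromosome 17, 32120820 to 32166896) had 3.05, 7.24, 17.6, 14.7, 31.1 and 16.9 CPM. It was low in replicates 1 and 2, intermediate in 3, 4 and 6 and high in 5. Notch4 (chromosome 17, 34564286 to 34588543) was the lowest receptor, with 1.13, 2.14, 4.85, 4.83, 7.12 and 5.45 CPM. The ranking of its libraries resembled that of Notch3, at 26 to 149 counts per library. As a share of the summed level per kb of the 4 receptors, Notch1 took 68.7% ± 5.66, Notch2 24.2% ± 2.75, Notch3 5.26% ± 2.95 and Notch4 1.80% ± 0.873 (SD, n = 6). The Notch3 share was 1.26% in replicate 1 and 9.38% in replicate 5, while that of Notch1 was lowest in replicate 5, at 62.3%, and highest in replicate 2, at 76.3%.

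Among the ligands, Jag1 had 23.4, 34.8, 62.3, 78.5, 105.5 and 70.8 CPM in replicates 1 to 6. No library of 3 to 6 fell into the range of replicates 1 and 2. Jag2 (chromosome 12, 112907803 to 112929812), the other Jagged ligand, had 3.61, 2.82, 5.12, 3.54, 3.44 and 3.30 CPM. Replicate 3 stood above the other 5 libraries. Dll1 (chromosome 17, 15367354 to 15376932), a Delta ligand, was counted 5, 0, 2, 1, 11.2 and 3 times. It was at or under 3 counts in 4 of 6 libraries, where 3 counts correspond to 0.131 to 0.149 CPM, so its level was hardly detectable at this depth, and the filter on low counts removed it. Jag1 took 85.7% ± 7.08 of the summed ligand level per kb, Jag2 13.5% ± 6.70 and Dll1 0.734% ± 0.772 (SD, n = 6).

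**Figure D1:**
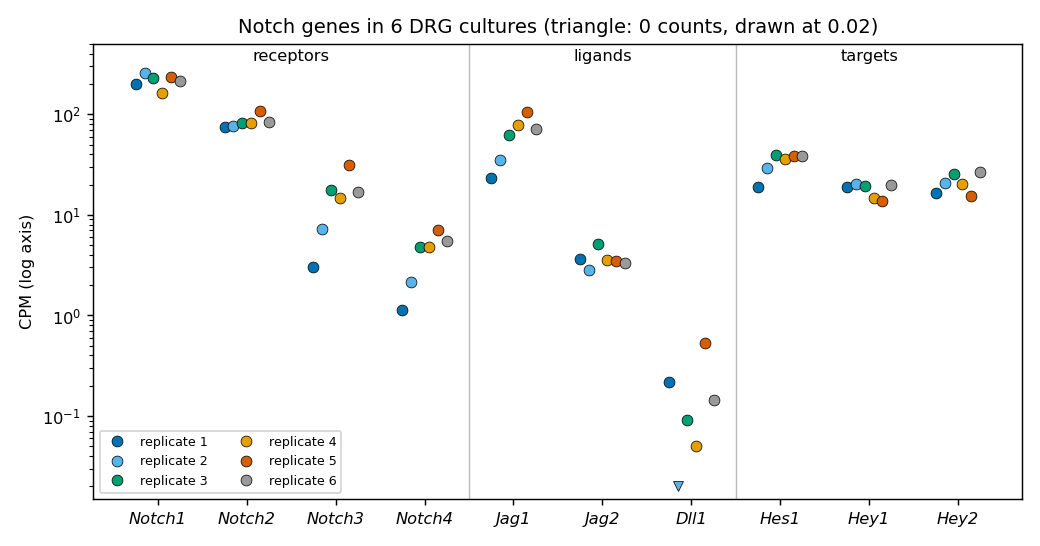
CPM (log axis) of the 10 Notch genes in each of the 6 cultures, with 1 point per library. The libraries of Notch3, Notch4 and Jag1 spread widely, from replicate 1 at the bottom to replicate 5 at the top, those of Notch1, Notch2 and Hey1 lie within a 1.57-fold range, and Dll1 had no count in replicate 2 (triangle).

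Among the targets, Hes1 had 18.8, 29.0, 39.3, 35.6, 38.8 and 38.2 CPM. Replicates 1 and 2 lay below the other 4, which were alike. Hey1 (chromosome 3, 8663359 to 8667038) had 19.0, 20.4, 19.4, 14.8, 13.8 and 19.9 CPM. Replicates 4 and 5 were low, and the other libraries were close together. Hey2 (chromosome 10, 30832359 to 30842783) had 16.6, 20.5, 25.3, 20.3, 15.6 and 26.4 CPM, lowest in replicates 1 and 5, the libraries at the opposite ends for Notch3. Hes1 held 54.6% ± 7.68 of the summed target level per kb, Hey2 23.6% ± 2.96 and Hey1 21.8% ± 5.46 (SD, n = 6). The Hes1 share was 42.9% in replicate 1 and 65.4% in replicate 5.

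Ordered by level per kb, Notch1 came first with 22.9 ± 3.39 CPM per kb, above 89.2% of the genes with any count, and Hes1 followed with 19.2 ± 4.67. Next came Hey2 (8.21 ± 1.74), Notch2 (8.03 ± 1.14), Hey1 (7.41 ± 1.17) and Jag1 (5.34 ± 2.55). Notch3 had 1.81 ± 1.16 CPM per kb, Jag2 0.694 ± 0.149, Notch4 0.606 ± 0.316 and Dll1 0.0431 ± 0.0480 (SD, n = 6 for each). Of the 45 pairs of members, 37 stood in the same order in all 6 libraries and differed by an exact sign-flip permutation test on log2(CPM per kb + 0.1), two-sided over 64 sign patterns (p = 0.0312, the smallest it can give, Benjamini-Hochberg adjusted 0.0380 over 45 pairs). The other 8 did not pass. Of the neighbours in the order, Hes1 stood above Hey2 by 1.20 ± 0.381, Jag1 above Notch3 by 1.63 ± 0.352 and Notch4 above Dll1 by 2.204 ± 0.769 (log2, SD, n = 6, exact permutation, adjusted p = 0.0380 each). The size of the difference between Notch4 and Dll1 depends on the added constant, because Dll1 was close to 0 counts. It was 0.599 with a constant of 1 and 3.78 with 0.01, in the same direction. Differences within the spread were those of Notch1 and Hes1 (0.28 ± 0.457, exact permutation, adjusted p = 0.268), Hey2 and Notch2 (0.016 ± 0.412, 0.906), Notch2 and Hey1 (0.12 ± 0.398, 0.639), Hey1 and Jag1 (0.61 ± 0.961, 0.268), Notch3 and Jag2 (1.00 ± 1.04, 0.108) and Jag2 and Notch4 (0.31 ± 0.773, 0.458). The order of Jag1 depends on its length. The combined exon length in the table, 11719 bases, is 2.09 times that of its longest coding GENCODE transcript, and with the latter Jag1 reached 11.1 ± 5.32 CPM per kb and came after Hes1, above Hey2, Notch2 and Hey1, which turned the order of Notch2 and Jag1, 1 of the 37 pairs.

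**Figure D2:**
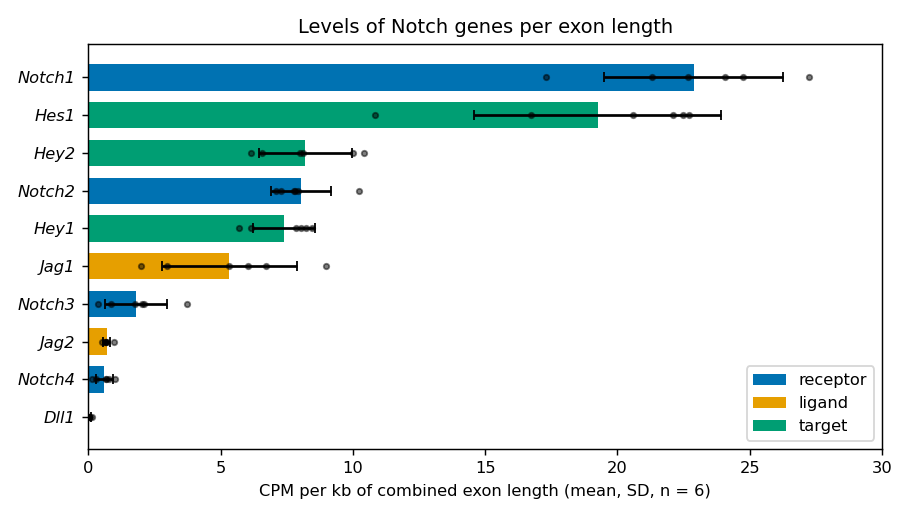
Mean CPM per kb of combined exon length with SD over 6 cultures (bars) and each culture (points), ordered by the mean and coloured by role. Notch1 and Hes1 lead with 22.9 and 19.2 CPM per kb, and Jag2, Notch4 and Dll1 are all under 1.

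The second question was how far the members varied between cultures. Of the 9 members kept by the filter, Notch3, Notch4 and Jag1 varied most, and Dll1, at 0 to 11.2 counts, is left out here. Their highest library exceeded the lowest 10.2-fold, 6.29-fold and 4.50-fold, in each case replicate 5 over replicate 1. The ratio was 2.09 for Hes1, 1.81 for Jag2, 1.69 for Hey2, 1.57 for Notch1, 1.48 for Hey1 and 1.44 for Notch2, and the median over the 14998 genes kept by the filter on low counts was 1.38. A larger ratio than that of Notch3 was found for 1.59% of those genes. Without replicates 1 and 5 the ratio was 2.43 for Notch3, 2.55 for Notch4 and 2.26 for Jag1, against a median of 1.23 over all genes, while that of Notch2 fell to 1.09.

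All 9 members that passed the filter varied beyond counting noise by a chi-square test with Benjamini-Hochberg adjustment over all genes, as did 76.3% of all genes tested, so the count says little about the members. The chi-square statistic was 1517 for Jag1, 670.5 for Notch3 (adjusted p = 2.10e-141) and 540.4 for Notch1 (adjusted p = 2.25e-113), and 15.7 for Jag2 (adjusted p = 0.0111). The Jag2 call rested on replicate 3, without which the adjusted p was 0.730, and that of Notch2 was lost without replicates 1 and 5 (adjusted p = 0.289). The genewise biological coefficient of variation (BCV), by which edgeR expresses variation between cultures beyond counting noise, was 0.698 for Notch3, 0.587 for Notch4, 0.507 for Jag1 and 0.259 for Hes1. These 4 of 9 members lay above the trend of genes of like abundance (0.227, 0.291, 0.156 and 0.184), as did 20.4% of all genes. Notch1 (0.158) and Hey2 (0.205) lay just under it, at trends of 0.160 and 0.207, and each passed to the other side when some single libraries were left out, while Notch2, Hey1 and Jag2 were further below. The median BCV was 0.205 over the 9 members and 0.0996 over all genes kept. The place of Hes1 above its trend rested on replicate 1. Without that library its BCV was 0.103 against a trend of 0.161, and its ratio of highest to lowest library 1.36. Without replicates 1 and 5, Hes1 was also under its trend (0.114 against 0.123), while Notch3 (0.362), Notch4 (0.364) and Jag1 (0.328) stayed above theirs, and Notch1 (0.197 against 0.106) and Hey1 (0.144 against 0.143) came to lie above.

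**Figure D3:**
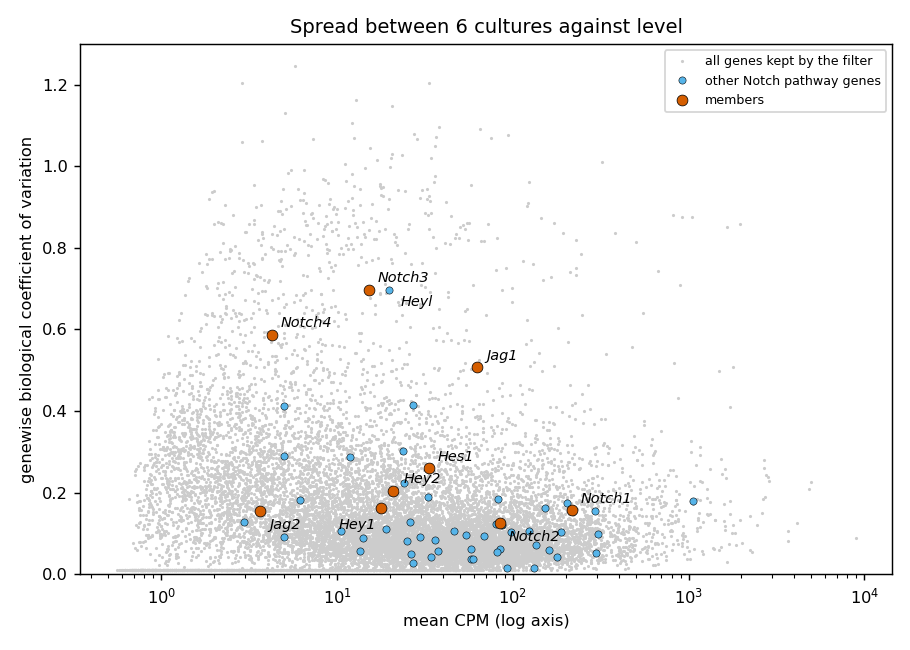
Genewise BCV against mean CPM (log axis) for all genes kept by the filter (grey), the other Notch pathway genes (blue) and the 9 members kept (orange). Notch3, Notch4 and Jag1, together with Heyl, lie far above the bulk of genes of like level.

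The third question was which cell type markers moved with the members. A list score was the mean over the list of log2(CPM per kb + 0.1) after scaling of library sizes by the trimmed mean of M-values (TMM), and each gene was related to 4 scores over the 6 libraries. Among these 4 scores, Notch3, Notch4, Jag1 and Hes1 had their highest Pearson's r with that of 10 mural genes, among them Rgs5, Acta2 and Myh11. By rank, Jag1 was closest to the endothelial score, as given below. Hey1 followed the score of 6 glial lineage genes such as Erbb3, Sox10 and S100b. Over the 36 relations of 9 members with 4 lists, 11 had an unadjusted p under 0.05, as did 15.7% of all genes for the glial lineage and the mural score, 20.1% for the fibroblast and 20.3% for the endothelial score, and 0 passed after adjustment over all genes, where the lowest adjusted p was 0.157. By the exact permutation test, none of the genes tested passed that adjustment for any of the 4 lists. With 720 pairings the exact permutation p cannot go below 0.00139. Unless many genes reach that value, none can pass the adjustment, so this result says little.

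With the mural score, 4 of 9 members had a p under 0.05, all with positive r, as did 8.46% of all genes in that direction. Pearson's r was 0.997 for Notch4 (exact permutation p = 0.00278, adjusted 0.201), 0.992 for Notch3 (exact permutation p = 0.00278, adjusted 0.201), 0.988 for Jag1 (exact permutation p = 0.00556, adjusted 0.201) and 0.930 for Hes1 (exact permutation p = 0.00139, adjusted 0.201). Spearman's rho was 0.94, 0.94, 0.83 and 1.00 in the same order, with exact permutation p of 0.0167, 0.0167, 0.0583 and 0.00278. When replicates 1 and 2, whose scores lie farthest from the median, were left out, r was 0.98 for Notch4, 0.98 for Notch3 and 0.88 for Jag1, and 0.44 for Hes1, so that the relation of Hes1 rests on those libraries. Without replicates 1 and 5, r was 0.997 for Notch4, 0.988 for Notch3, 0.952 for Jag1 and 0.962 for Hes1, over 4 libraries in which an exact permutation test cannot go below p = 0.0417. Notch2 had r = 0.75 with this score (exact permutation p = 0.0847, adjusted 0.373) and rho = 0.94 (exact permutation p = 0.0167). A larger absolute r with this score was found for 0.0133% of genes in the case of Notch4 and 3.80% in that of Hes1. The SD over libraries of log2 Notch3 was 1.06, and 0.130 after the mural score was subtracted. For Notch4 it went from 0.781 to 0.276 and for Jag1 from 0.773 to 0.308, whereas for Hes1 it went up from 0.401 to 0.692. The SD of the score itself was 1.05.

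The mural score itself was 0.82, 1.61, 2.88, 2.86, 3.66 and 3.00 in replicates 1 to 6. Rgs5, a mural marker, went from 8.49 CPM in replicate 1 to 123.5 in replicate 5, Acta2, smooth muscle actin, from 38.4 to 836 and Myh11, smooth muscle myosin, from 4.99 to 53.5. Other lists also differed between these libraries. The macrophage score was -0.22 in replicate 1 and 2.63 in replicate 5, the satellite glia score 4.57 and 5.05 and the perineurial score 2.06 and 3.10. Members were not related to these other lists, so whether any of them followed the members as closely was not tested. The part of each cell type in the relations was not tested.

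The glial lineage score was lowest in replicate 5, where the mural score was highest. With the glial lineage score, 1 of 9 members reached a p under 0.05, as did 15.7% of all genes in either direction (8.38% with positive and 7.28% with negative r). Hey1 had r = 0.960 (exact permutation p = 0.00139, adjusted 0.239) and rho = 1.00 (exact permutation p = 0.00278), and r = 0.97 without replicates 2 and 5. The SD of log2 Hey1 over libraries was 0.25, and 0.0700 after the glial score was subtracted. Hey2 had r = 0.59 (exact permutation p = 0.221, adjusted 0.493) and Notch1 r = 0.30 (exact permutation p = 0.547, adjusted 0.759), the latter 0.86 without replicates 2 and 5. Notch2 (r = -0.84, exact permutation p = 0.0639, adjusted 0.329) and Jag1 (r = -0.71, exact permutation p = 0.117, adjusted 0.383) had larger absolute r, with negative sign, and none of these 4 passed.

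**Figure D4:**
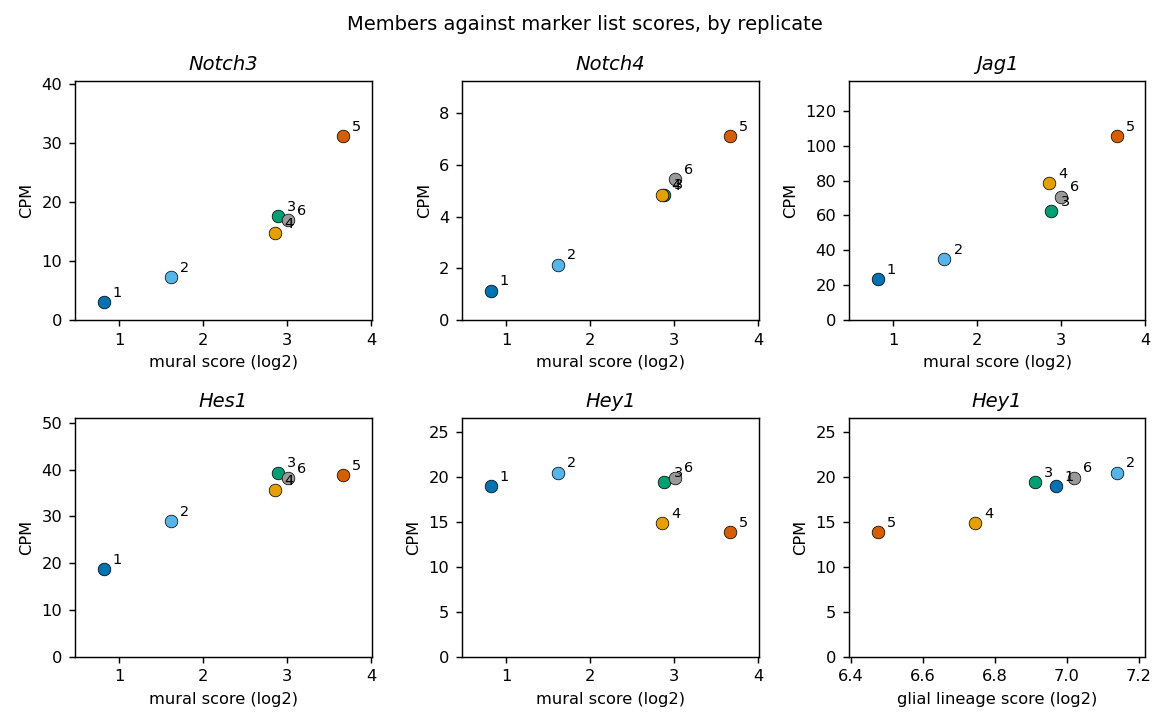
CPM of Notch3, Notch4, Jag1, Hes1 and Hey1 against the mural score and of Hey1 against the glial lineage score (log2 scale), with 1 numbered point per culture. The first 4 genes are low in replicates 1 and 2 and higher in the others, whereas Hey1 is lowest in replicates 4 and 5, which have the lowest glial scores.

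With the fibroblast score, 4 of 9 members had a p under 0.05, against 20.1% of all genes in either direction. These were Jag1 (r = 0.87), Notch3 (r = 0.84) and Notch2 (r = 0.82) with positive and Hey1 (r = -0.84) with negative sign (exact permutation p = 0.0222, 0.0333, 0.0306 and 0.0333, adjusted 0.181, 0.209, 0.203 and 0.209). Their rho was 0.83, 0.71, 0.66 and -0.77 (exact permutation p = 0.0583, 0.136, 0.175 and 0.103). Without replicates 1 and 5, r was 0.48 for Jag1, 0.14 for Notch3 and 0.041 for Notch2, so these 3 rest on those libraries, and -0.97 for Hey1. With the endothelial score, 2 of 9 members had a p under 0.05, against 20.3% of all genes in either direction (11.0% with positive and 9.3% with negative r): Notch2 with r = 0.97 (exact permutation p = 0.0139, adjusted 0.157; rho = 0.83, exact permutation p = 0.0583) and Hey1 with r = -0.85 (exact permutation p = 0.0181, adjusted 0.171; rho = -0.83, exact permutation p = 0.0583). Without replicates 4 and 5, r was 0.86 for Notch2 and 0.15 for Hey1. In the 4 libraries left, r was 0.9995 for Hes1, 0.989 for Notch3, 0.980 for Hey2, 0.963 for Notch4 and 0.959 for Jag1. It was 0.29 for Notch1 and 0.28 for Jag2. Over all 6 libraries, r was 0.49 for Hes1, 0.74 for Notch3 and -0.55 for Hey2. High r over the libraries left was thus not particular to the mural score. The endothelial score was 1.13 in replicate 5 and between -1.57 and -0.67 in the others, and without replicate 5 alone r of Notch2 was 0.67 (exact permutation p = 0.183). Notch4, known from endothelium, had r = 0.67 with the endothelial score (exact permutation p = 0.143, adjusted 0.371; rho = 0.83, exact permutation p = 0.0583). Jag1 had r = 0.75 with it (exact permutation p = 0.0708, adjusted 0.275). The rho of Jag1 was 0.94 with the endothelial score (exact permutation p = 0.0167), against 0.83 with both the mural and the fibroblast score. The endothelial genes Pecam1 and Cldn5 were at 1.24 and 0 CPM in replicate 6, where Cdh5, also endothelial, had 15.8 CPM and Notch4 5.45 CPM.

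Genes most like each member in their pattern over the 6 libraries, among 11932 or 11933 other genes with a mean of at least 5 CPM, are given as a description, since many genes reach a high r over 6 points. For Notch3 they were Mrvi1 (r = 0.999), Actg2, the gamma actin of smooth muscle (r = 0.999), and Adam15 (r = 0.999). For Notch4 they were Tgfb3 (r = 0.999), Fpgs (r = 0.997) and Mef2c (r = 0.995), and for Jag1 Arap2 (r = 0.998), Htr1b (r = 0.995) and Gm12693 (r = 0.995). Hes1 was followed by Ceacam1 (r = 0.998), Plgrkt (r = 0.992) and Ntn4 (r = 0.992), Hey1 by Btbd6, C330007P06Rik and Cipc (r = 0.995, 0.995 and 0.993) and Hey2 by Upf3b, Gpr146 and Fst (r = 0.991, 0.990 and 0.990). An r of at least 0.95 was reached by 181 genes for Jag1, 153 for Notch3, 134 for Notch4 and 81 for Notch2, but by 6 genes for Notch1. Those nearest to Notch1 were Rsf1, Tent4b and Nynrin (r = 0.988, 0.985 and 0.977), and for Jag2 they were Tmem150c, Pgap6 and Vezt (r = 0.998, 0.991 and 0.986). Notch2 was nearest to Rpl9-ps6, Prelid3b and Cited2 (r = 0.992, 0.991 and 0.991).

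Of 60 other genes of the pathway, 48 reached at least 1 CPM in all 6 libraries. The machinery that cuts receptors was present in every library. Adam10, the main metalloprotease of Notch, had 1054 ± 179 CPM and Adam17 153 ± 23.6 CPM (SD, n = 6). All 7 gamma-secretase genes passed 1 CPM in every library, among them Ncstn at 304 ± 26.0 CPM (SD, n = 6). Psenen and Aph1c did not pass the test of variation beyond counting noise (chi-square, Benjamini-Hochberg adjusted p = 0.238 and 0.113).

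In the nuclear complex, 8 of 9 genes were above 1 CPM in every library. Rbpj had 71.3, 75.0, 76.9, 87.3, 114.7 and 69.6 CPM in replicates 1 to 6, with replicate 5 highest, although its counts were fractional in all 6 libraries. The coactivators Maml1, Maml2 and Maml3 had 54.0 ± 4.86, 46.0 ± 5.01 and 37.4 ± 2.56 CPM (SD, n = 6). All 8 corepressor genes were above 1 CPM in every library, led by Tle3 at 295 ± 43.4 CPM. Of the 3 Fringe enzymes, which modify the receptor and alter its response to ligands, Rfng had 26.3 ± 1.75 CPM, Lfng 23.6 ± 7.16 CPM and Mfng 0.410 ± 0.270 CPM (SD, n = 6). Lfng was lowest in replicate 1, at 13.1 CPM, and highest in replicate 5, at 34.7 CPM. Mib1, the ubiquitin ligase that makes ligands active, was even at 178 ± 7.51 CPM.

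Heyl, a further Hey family gene, had 3.61, 12.7, 20.8, 27.1, 39.7 and 15.2 CPM, which spanned 11.0-fold between replicates 1 and 5. It had a BCV of 0.697 against a trend of 0.210 and r = 0.92 with the mural score (exact permutation p = 0.00833, adjusted 0.201; rho = 0.77, exact permutation p = 0.103), falling to 0.72 without replicates 1 and 2. With the fibroblast score its r was 0.94 (exact permutation p = 0.00417, adjusted 0.122; rho = 0.94, exact permutation p = 0.0167), and 0.87 without replicates 1 and 5. With the endothelial score r of Heyl was 0.74 (exact permutation p = 0.143, adjusted 0.371), and 0.98 without replicates 4 and 5. Its rho with that score was 1.00 (exact permutation p = 0.00278). Nrarp, a feedback inhibitor induced by Notch, had 4.99 ± 1.52 CPM and Hes6 10.5 ± 1.23 CPM (SD, n = 6). Hes2, Hes3, Hes5, Hes7 and Helt had at most 3 counts in every library. Among the other ligands and their relatives, Dll3 and Dlk2 had at most 3 counts in every library. Dll4, a Delta ligand known from endothelium, was counted 11, 8, 5, 5, 84 and 0 times in replicates 1 to 6, so that replicate 5, with the highest endothelial score, held most of its counts.

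Across the 48 of these genes kept by the filter, 40 varied beyond counting noise (76.3% of all genes tested did) and 11 had a BCV above the trend (20.4% of all genes), so both counts lie near the background. Their median ratio of highest to lowest library was 1.31, against 1.81 for the 9 members and 1.38 for all genes kept. The ratio exceeded 2 for Heyl, Cntn1 (3.58), Neurl1b (2.76), Lfng (2.64), Dner (2.39), Nrarp (2.21) and Dtx4 (2.05).

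Some counts were not whole, and some members overlap other genes. How the fractions arose was not given in the sources used here. Jag1 and Hey1 had fractional counts in 3 libraries each, Notch1 in 2 and Dll1 in 1. Notch1, Notch2, Notch3 and Hey2 overlap long noncoding genes on the opposite strand, which held at most 0.765 CPM. Hey1 shares its strand with the overlapping LOC115489673 (at most 0.166 CPM). The strand setting of the counting was not given in the sources used here.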

How the data were processed

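Poly-A RNA of 6 cultures was sequenced. Per the submitters' processing notes, the tools were bcl2fastq 2.20.0.422, cutadapt 2.5, STAR 2.7.2b and featureCounts 1.6.4 of Subread, with build GRCm38.p6; their settings were not given in the sources used here. The authors deposited 1 table of estimated counts per gene, unscaled, in which 13.4% to 14.7% of values per library were not whole, together with a combined exon length per gene. There were 0 further columns of per-sample values. Columns were matched to samples by their descriptions.

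CPM used library totals. Expected counts were rounded before use in edgeR 4.0.16 or DESeq2 1.42.0, run in R 4.3.3. Genes were kept with filterByExpr (14998 genes) and scaled by TMM. The chi-square test set the 6 counts of a gene against counts proportional to scaled library sizes. Levels of members were compared by exact sign-flip permutation, and relations to marker scores by exact permutation over 720 pairings. The chi-square test and the permutation test of relations were checked on simulated data, whereas the sign-flip test was not. Members, marker lists, pathway lists and tests were chosen with earlier results of these data known. Named genes were the members, the pathway list, and for each member the 3 genes with the highest r among those with a mean of at least 5 CPM. Alternatives were other scalings, pseudocounts, filters and lengths, and leaving out libraries. Intervals over cultures are SDs and cover no error of mapping.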

Additional observations from a re-analysis of the deposited data

Results flagged for a closer look

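Over 15 measures (the 10 members, 4 list scores and the Notch1 share of receptors), the distance of the highest or lowest library to the next was set against the whole range. A ratio above 0.625, Dixon's critical value, was reached by 3 measures, where chance gives 0.75. Notch2 had a ratio of 0.738, because replicate 5 (107.7 CPM) lay far above the next library (83.4 CPM). Jag2 had a ratio of 0.656, from replicate 3 (5.12 CPM against 3.61 CPM for the next), at 62 to 111 counts per library, and 0.594 on the log2 scale, under the critical value. The endothelial score had a ratio of 0.663, from replicate 5 (1.13 against -0.67). Replicate 5 was the extreme library of both Notch2 and the endothelial score.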

How the results depend on the processing

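No paired analysis was possible because all samples belong to 1 group. Counts of members detected, called, in a fixed order or above the trend, the 48 other pathway genes detected and the Notch1 share of receptors kept within 1.5 times, or 1 SD, of their values under every alternative run. Within these bounds, the count of members above the trend, 4 in the main run, was 5 or 6 in every alternative. The number of relations with an unadjusted p under 0.05, which was 11, was 6 with Spearman's rho, 6 to 12 when single libraries were left out (6 without replicate 5, 7 without replicate 4) and 3 without replicates 1 and 5, where 24 pairings remain. That number was 14 with a pseudocount of 1, 13 with the median of each list as its score and 12 with library totals in place of TMM. Without length, Hey2 over Notch2 became -2.03, Hey1 over Jag1 -1.65 and Jag2 over Notch4 -0.020 (log2). In all, 6 pairs changed their order without length, 2 of them among the 37 (Hes1 then stood below Notch2 and Jag1). With the longest GENCODE coding transcript as length, chosen after the lengths were compared, Hey1 over Jag1 became -0.44, and 3 pairs changed their order, 1 of them among the 37 (Notch2 and Jag1). The change of order follows from the lengths. A sign-flip test over 5 libraries cannot go below 0.0625, so only the order of pairs was recounted with a library left out. Depth limits Dll1, which had 22.2 counts in all.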
